A study of Homo sapiens with 120 samples.

Results

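The genes described here are 39 interferon-stimulated genes and RNA sensors, chosen by symbol from the 57665 genes of the deposited tables. All 39 were found, and 38 of them passed the filter on low counts that left 26998 genes for testing. RSAD2, which encodes the antiviral enzyme viperin, did not pass it. It had at most 16 estimated counts in a library and 0 counts in 24 of 120 libraries. RNA was sequenced from U2OS cells, a human osteosarcoma line, in 40 groups of 3 wells each. The Dmr-PERK line is U2OS stably expressing a fusion of the eIF2α kinase domain of mouse PERK with the dimerization domain DmrB, and the Parental line is U2OS without that construct. In each line, wells received the dimerizer AP20187 (0.2 nM as rounded in the series text), thapsigargin (100 nM), which empties the calcium stores of the endoplasmic reticulum, or sodium arsenite (0.05 mM), an oxidative stressor, for 2, 4, 8, 16 or 24 h. Untreated wells of both lines were taken at 0, 4, 8, 16 and 24 h. The doses were chosen by the submitters to give similar phosphorylation of eIF2α, and dimerizer on Parental cells is the control for the compound itself.

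RIG-I and MDA5, encoded by DDX58 and IFIH1, recognise viral double-stranded RNA in the cytoplasm and lead to secretion of type I and type III interferons. Interferon acts through its receptors and JAK kinases on a complex that holds STAT2 and IRF9 and binds a DNA element in the promoters of interferon-stimulated genes, which switches on proteins that degrade viral RNA, block virus entry and modify host proteins with ISG15. Phosphorylation of eIF2α, the shared step of the integrated stress response, lowers general protein synthesis and favours translation of the transcription factor ATF4. PKR, a kinase that can carry it out, is itself encoded by an interferon-stimulated gene.

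Totals of estimated counts ranged from 12900000 to 56500000 per library. The dimerizer acted in the line that carries the construct: DDIT3, a stress-response target, was 8.87-fold higher in dimerizer-treated than in untreated Dmr-PERK wells, and in Parental wells the log2 difference was -0.09 (edgeR quasi-likelihood test, Benjamini-Hochberg adjusted p = 0.717). The human EIF2AK3 gene, which encodes PERK, read 28.4-fold higher in untreated Dmr-PERK than in untreated Parental wells. Whether reads of the mouse kinase domain were assigned to it was not tested. Of markers of the line, RUNX2 and VIM were present in every library, while the osteoblast genes COL1A2 and SP7 were near the floor of the TPM table. Of 7 epithelial markers, EPCAM, CDH1, KRT8 and KRT18 were present in every library, while KRT19 was listed at 0 in 38 of 60 Dmr-PERK and 36 of 60 Parental libraries, and KRT5 and ESRP1 were at 0 in some. The 7 blood cell markers summed to between 0.804 and 4.77 TPM in the libraries that were summed. Wells of the earliest times were left out of these sums. The third Parental library with arsenite for 24 h correlated less with the others than any other library outside its group did. Some Parental arsenite counts are given with and without it. The labels do not say whether the 3 wells of a group were separate cultures, and p-values measure the spread between wells, which may be technical. In such bulk RNA, fewer cells with a transcript and less of it per cell cannot be told apart.

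The members were expressed at very different levels in resting cells. In TPM, a unit that corrects for gene length, IFITM3, a membrane protein that restricts virus entry, was highest, with 86.8, 100.3 and 113 TPM as lowest, median and highest of 15 untreated Dmr-PERK libraries, against 82.0, 104 and 110 TPM in untreated Parental libraries. STAT2 followed with a median of 40.5 TPM in Dmr-PERK and 46.9 TPM in Parental libraries. These ranges did not meet, so IFITM3 stood above STAT2 in both lines. IFI6, IRF9, UBE2L6, IFITM2, ISG15, TRIM21, IRF1, PARP14, DTX3L and PARP9 had untreated medians between 7.68 and 32.5 TPM, in the order of their levels in Dmr-PERK libraries, where the ranges of neighbours overlapped. The order differed in Parental libraries: IFITM2 had 25.5 to 37.8 TPM, wholly above the 15.6 to 19.5 TPM of UBE2L6 and the 15.8 to 20.0 TPM of IFI6. The RNA sensor DDX58 had a median of 7.60 TPM in Dmr-PERK and 5.21 TPM in Parental wells, and IFIH1 had 2.53 and 1.09 TPM. At the low end, 10 members had a median under 1 TPM in both lines, among them OAS1, OAS2, IFIT2, HERC5 and BST2. Values of IFITM1, a short gene with 0 to 20 counts per library, and of its close relatives IFITM2 and IFITM3 depend on how the quantification divided shared reads, and the same holds for the IFIT and OAS families.

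**Figure D1:**
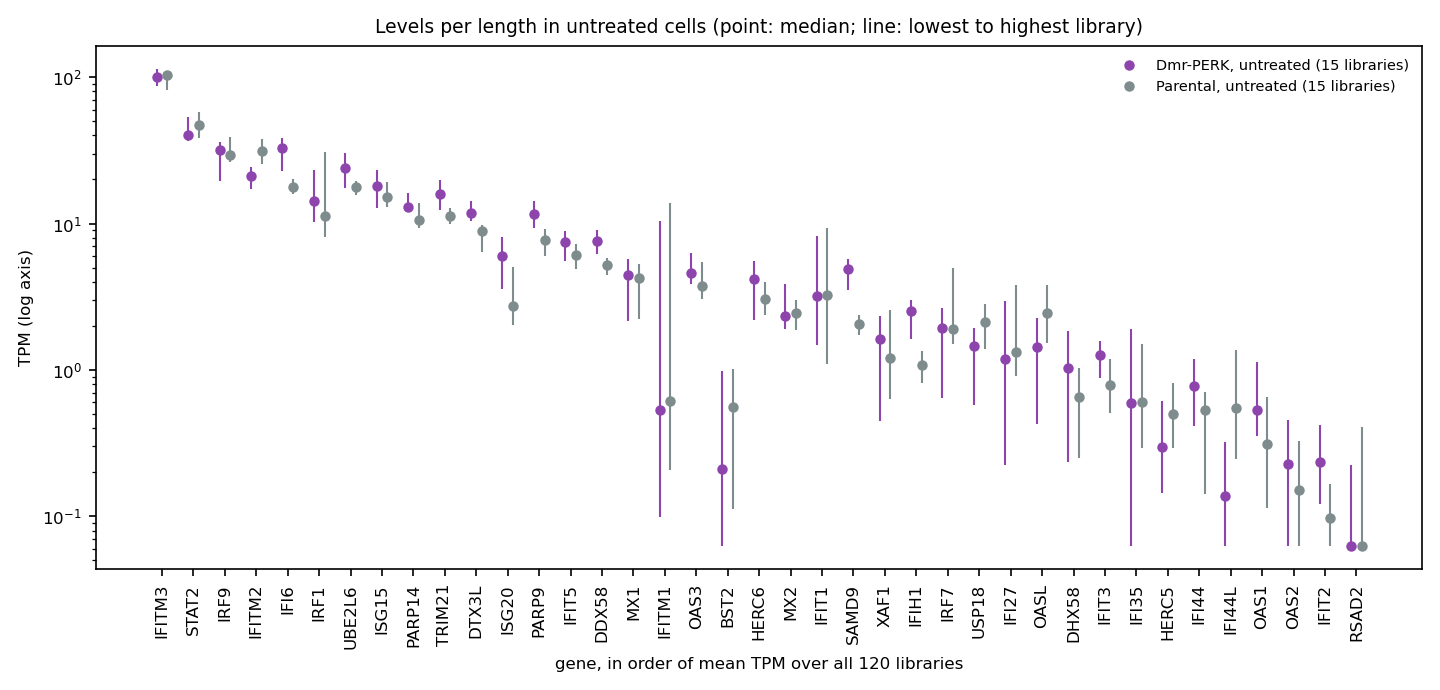
Levels of the 39 genes in untreated wells, in TPM on a log axis. For each gene and cell line, the point is the median and the bar the range of 15 libraries. IFITM3 is highest, with a median of 100.3 TPM in Dmr-PERK and 104 TPM in Parental wells, and RSAD2 lies at the table's floor.

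Dimerizer lowered most of these genes in Dmr-PERK cells. Averaged over 4, 8, 16 and 24 h against untreated wells of the same times, 28 of the 38 tested members were lower and 4 were higher, at an adjusted p under 0.05. Of all genes tested, 55.3% were called in this comparison, 27.9% lower and 27.4% higher. The median log2 fold change of the members was -0.53, against -0.03 for all genes tested. SAMD9, an antiproliferative and antiviral factor, IFIT1, which binds viral RNA that lacks the host cap methylation, and OAS3, which makes the oligoadenylates that activate RNase L, had the smallest adjusted p among the lower members. The 4 members that were higher were IRF1, ISG20, IFIT5 and DTX3L.

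**Figure D2:**
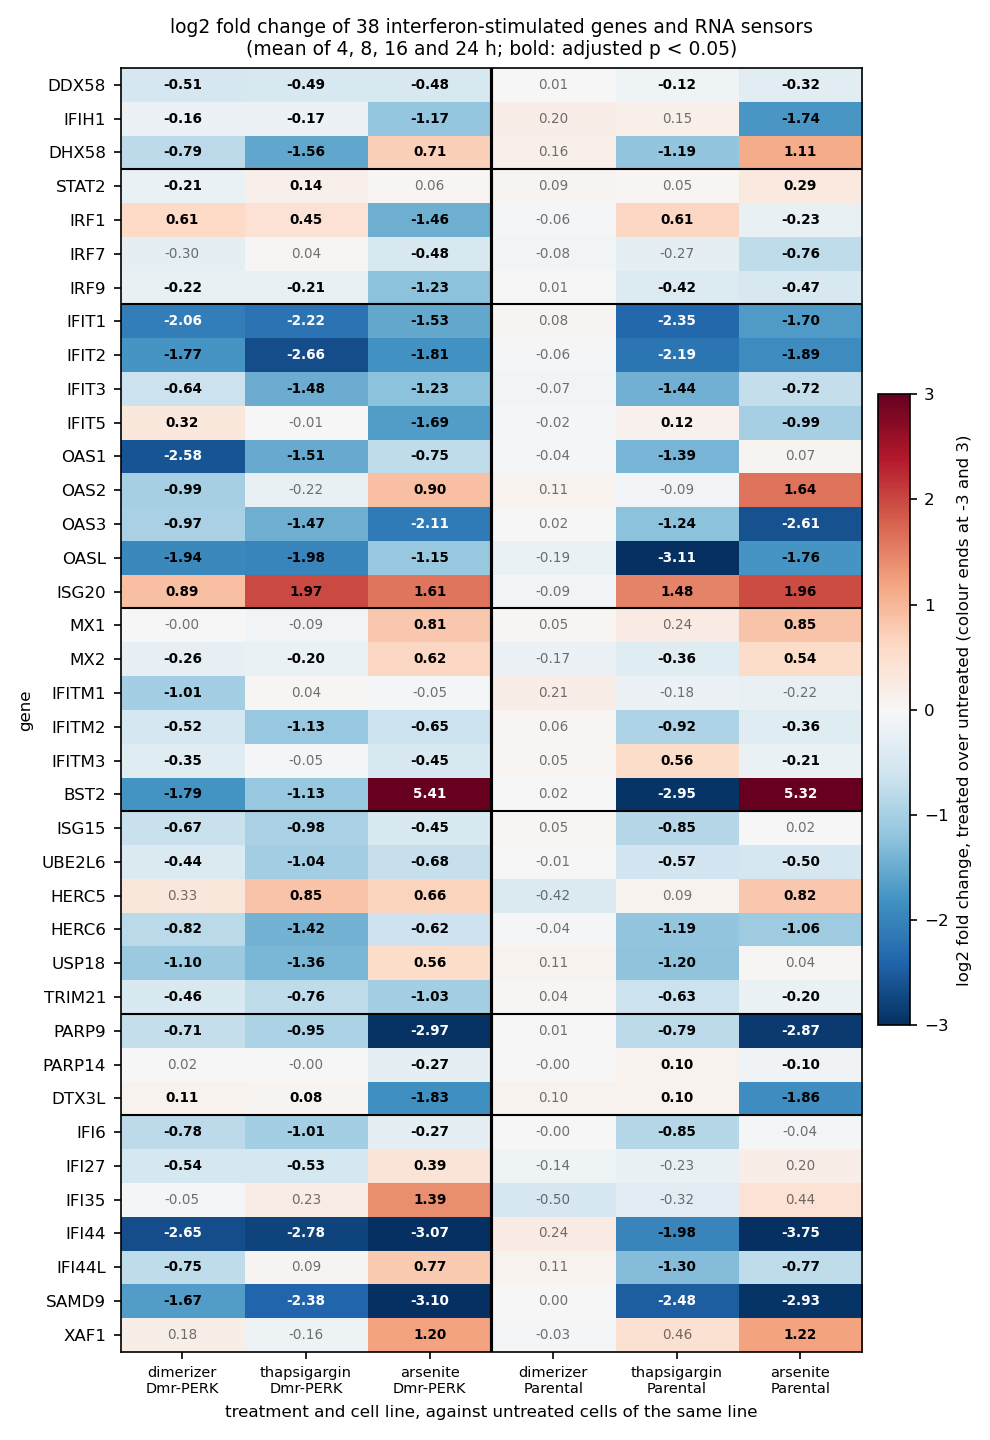
Heat map of log2 fold changes of the 38 tested members (rows, by role) in 6 comparisons of treated with untreated wells averaged over 4 to 24 h (columns); values in bold passed an adjusted p of 0.05. The dimerizer column of Dmr-PERK cells holds 28 lower and 4 higher members, and the dimerizer column of Parental cells holds 0 called members.

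SAMD9 had 3.80, 6.24 and 10.8 TMM-scaled CPM as lowest, median and highest of 12 dimerizer-treated Dmr-PERK libraries, against 16.2, 19.7 and 23.8 CPM in the 12 untreated libraries. The groups did not overlap. The log2 fold change was -1.67 ± 0.0562 (SE), 3.18-fold lower (adjusted p = 2.26e-47). IFIT1 had 0.676, 1.11 and 1.84 CPM with dimerizer, against 2.51, 4.06 and 10.2 CPM untreated, again without overlap, and was 4.18-fold lower (log2 -2.06 ± 0.0985, adjusted p = 1.36e-35). OAS3 had 4.18, 8.72 and 13.9 CPM with dimerizer, against 14.1, 16.5 and 18.3 CPM untreated, and was 1.96-fold lower (adjusted p = 1.9e-34). These 3 genes, PARP9 and IFI44 were the 5 members whose treated libraries all lay below all untreated libraries. Such separation was seen for 2.86% of all genes tested. 0 members lay wholly above, against 5.23% of all genes.

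Promoters of 6 members with called changes are shown to let the DNA element be seen beside the measurement. They are the 250 bases before the RefSeq transcript start on GRCh38.p14, read 5′ to 3′ on the gene's strand, and capitals mark GAAA, any 2 bases and GAAA again, on either strand, the core of the element that the complex with STAT2 and IRF9 and other IRF proteins bind. IFIT1, SAMD9 and OAS3 were lower with dimerizer, IFIT5 and ISG20 were higher, and BST2 was higher with arsenite.
IFIT1, chr10:89392373-89392622, + strand: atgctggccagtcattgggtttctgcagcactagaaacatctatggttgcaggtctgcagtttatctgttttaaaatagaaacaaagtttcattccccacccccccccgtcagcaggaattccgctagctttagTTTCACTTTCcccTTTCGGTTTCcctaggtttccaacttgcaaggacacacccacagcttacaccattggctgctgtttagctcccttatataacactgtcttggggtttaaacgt
SAMD9, chr7:93117980-93118229, - strand: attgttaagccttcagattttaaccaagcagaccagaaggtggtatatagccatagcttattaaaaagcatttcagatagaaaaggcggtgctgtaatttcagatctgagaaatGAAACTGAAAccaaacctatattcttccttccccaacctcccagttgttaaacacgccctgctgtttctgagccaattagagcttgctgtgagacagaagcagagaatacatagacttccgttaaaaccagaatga
OAS3, chr12:112938224-112938473, + strand: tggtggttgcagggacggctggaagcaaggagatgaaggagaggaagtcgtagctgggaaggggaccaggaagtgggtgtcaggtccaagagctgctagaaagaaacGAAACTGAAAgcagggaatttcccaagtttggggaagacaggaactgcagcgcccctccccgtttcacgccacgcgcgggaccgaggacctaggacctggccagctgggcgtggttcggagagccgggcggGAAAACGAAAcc
IFIT5, chr10:89414318-89414567, + strand: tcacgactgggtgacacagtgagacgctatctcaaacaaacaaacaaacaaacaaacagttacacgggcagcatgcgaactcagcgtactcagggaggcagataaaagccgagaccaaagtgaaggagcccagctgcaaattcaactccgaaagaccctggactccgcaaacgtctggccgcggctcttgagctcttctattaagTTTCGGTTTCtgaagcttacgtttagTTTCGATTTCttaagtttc
ISG20, chr15:88638766-88639015, + strand: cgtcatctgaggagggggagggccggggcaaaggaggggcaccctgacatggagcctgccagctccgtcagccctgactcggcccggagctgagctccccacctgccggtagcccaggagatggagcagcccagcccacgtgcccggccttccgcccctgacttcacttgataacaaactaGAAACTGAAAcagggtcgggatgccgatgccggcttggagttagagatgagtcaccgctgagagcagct
BST2, chr19:17405631-17405880, - strand: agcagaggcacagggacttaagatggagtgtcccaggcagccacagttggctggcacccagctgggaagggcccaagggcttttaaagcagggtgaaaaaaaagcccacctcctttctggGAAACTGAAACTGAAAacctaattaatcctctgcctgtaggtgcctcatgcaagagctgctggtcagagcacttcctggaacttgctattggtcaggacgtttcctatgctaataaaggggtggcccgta
All 6 hold the motif, while the promoters of IRF1 and DTX3L, which were also higher with dimerizer and are not shown, hold 0 copies. The first bases after the IFIT5 start shown were not found in an annotated transcript of that gene. Of 31 members with a promoter in the RefSeq table, 20 (64.5%) held it at least once, against 3.71% of all 27305 genes and 3.02% of all 35116 promoters of the same length. The BST2 promoter has 2 overlapping copies. By the dimerizer result in Dmr-PERK cells, the motif was in 14 of 21 matched members that were lower, in 2 of 4 that were higher and in 3 of 5 that were not called, so members of both directions carried it. A match describes the letters of this window and is not a measured binding site.

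All 3 RNA sensors were lower with dimerizer. DDX58 had 10.2, 15 and 22.7 CPM with dimerizer, against 18.0, 21.3 and 24.3 CPM untreated, with overlap, and its log2 fold change was -0.51 ± 0.0373 (adjusted p = 4.42e-23). IFIH1 had 2.81, 4.81 and 6.40 CPM with dimerizer, against 3.73, 5.14 and 6.51 CPM untreated. The groups overlapped over most of their range, and the log2 difference was -0.16 ± 0.0674 (adjusted p = 0.0312). This call was lost with any replicate number left out (adjusted p = 0.0843 to 0.106) and on log2(TPM + 1) with limma (adjusted p = 0.186). It was called at 16 and 24 h and not before: at 24 h IFIH1 had 4.66, 3.94 and 4.03 CPM in the 3 dimerizer wells, against 5.47, 5.32 and 6.51 CPM in the 3 untreated wells.

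Of the 4 transcription factors, STAT2 and IRF9 were lower, IRF1 was higher and IRF7 was not called. STAT2 had 45.9, 50.8 and 55.4 CPM with dimerizer, against 49.9, 58.6 and 76.7 CPM untreated, a log2 fold change of -0.21 ± 0.0283 (adjusted p = 2.37e-10). IRF9, the DNA-binding subunit of the complex, had a log2 fold change of -0.22 ± 0.0411 (adjusted p = 2.9e-06). It was called higher at 8 h and lower at 16 and 24 h, with 13.4, 12.4 and 12.8 CPM in dimerizer wells at 24 h, against 22.0, 21.9 and 20.5 CPM in untreated wells. IRF1, which can induce some of the same genes without STAT2, had 17.4, 20.3 and 40.3 CPM with dimerizer, against 11.1, 13.6 and 23.5 CPM untreated. Although its pooled ranges overlapped, it was 1.52-fold higher (log2 0.61 ± 0.0413, adjusted p = 6.34e-25).

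Among the 9 effectors that bind or degrade RNA, 7 were lower and 2 were higher. The 2 that were higher were IFIT5, a relative of IFIT1 that binds RNA with a triphosphate end, and ISG20, an exonuclease that degrades single-stranded RNA. ISG20 had 3.05, 5.85 and 7.02 CPM with dimerizer, against 2.23, 2.70 and 3.38 CPM untreated, a 1.86-fold increase (log2 0.89 ± 0.0773, adjusted p = 8.1e-19). IFIT5 had 21.6, 24.6 and 27.1 CPM with dimerizer, against 14.5, 19.9 and 24.3 CPM untreated, a 1.25-fold increase (log2 0.32 ± 0.0361, adjusted p = 1.81e-13). IFIT5 lies beside IFIT1 on chromosome 10. OASL, an OAS-like protein without the synthetase activity, had 0.194, 0.567 and 1.44 CPM with dimerizer, against 0.777, 2.66 and 3.68 CPM untreated (log2 -1.94 ± 0.141, adjusted p = 4.3e-23).

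Most members of the membrane and ISG15 groups were lower as well. Of the 6 genes that act at membranes on virus entry or budding, 5 were lower, of which the calls of IFITM1, BST2 and MX2 were lost without replicate 2 (adjusted p = 0.145, 0.125 and 0.0886) and without replicate 3 (0.0876, 0.0756 and 0.0596). IFITM1 turned to the other direction on log2(TPM + 1), at 0.50 (adjusted p = 0.39), and on log2(TPM + 0.1), at 0.51. IFITM3 had 26.1, 34.0 and 39.4 CPM with dimerizer, against 36.6, 42.5 and 48.2 CPM untreated (log2 -0.35 ± 0.0315, adjusted p = 3.61e-18), and IFITM2 had 3.79, 5.34 and 6.88 CPM, against 5.91, 7.42 and 9.01 CPM (log2 -0.52 ± 0.0602, adjusted p = 1.06e-12). MX1, a dynamin-like GTPase that traps viral particles, was the exception, with 1.09, 1.76 and 2.53 CPM with dimerizer, against 1.25, 1.82 and 2.41 CPM untreated. In the ISG15 and ubiquitin group 5 of 6 were lower. UBE2L6, the ISG15 conjugating enzyme, had 8.76, 14.3 and 20.5 CPM with dimerizer, against 14.3, 19.0 and 24.8 CPM untreated (log2 -0.44 ± 0.0356). ISG15 itself had 2.52, 3.98 and 6.48 CPM, against 4.56, 6.64 and 7.74 CPM untreated (log2 -0.67 ± 0.0749). HERC6 and USP18, a ligase and the protease that removes ISG15, had log2 fold changes of -0.82 and -1.10, and TRIM21, a cytosolic antibody receptor and ubiquitin ligase, of -0.46. HERC5, the main human ISG15 ligase, was not called, with a log2 difference of 0.33 ± 0.174 (adjusted p = 0.0999).

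Averaged over the times, PARP9 was lower, DTX3L slightly higher and PARP14 not called. PARP9 and DTX3L form an ADP-ribosylating ubiquitin ligase and are adjacent on chromosome 3, on opposite strands with a short overlap. PARP9 had 11.1, 15.7 and 21.2 CPM with dimerizer, against 21.5, 25.8 and 29.5 CPM untreated, without overlap (log2 -0.71 ± 0.0426, adjusted p = 1.01e-28). DTX3L had 36.2, 50.6 and 63.0 CPM, against 42.1, 45.2 and 53.6 CPM untreated, a mean log2 fold change of 0.11 ± 0.0326 (adjusted p = 0.00297). It was called higher at 8 h (0.40, adjusted p = 8.32e-08) and lower at 16 h (-0.17, adjusted p = 0.0345). On log2(TPM + 1) with limma, DTX3L was not called (adjusted p = 0.104), nor without replicate 2 (adjusted p = 0.0535). Whether the counting used strand is unknown here, and reads of the shared stretch may have gone to either gene. PARP14, a mono-ADP-ribosyltransferase, had 52.1, 65.9 and 79.9 CPM with dimerizer and 54.8, 63.8 and 81.1 CPM untreated (log2 0.02, adjusted p = 0.713). Among the 7 other members, IFI6, IFI27, IFI44, IFI44L and SAMD9 were lower, while IFI35 and XAF1 were not called. IFI6, a mitochondrial and endoplasmic reticulum protein, had 3.74, 8.91 and 14.5 CPM, against 10.1, 14.1 and 17.9 CPM untreated (log2 -0.78 ± 0.0513, adjusted p = 6.13e-26).

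More members were called lower at later times. At 2 h, set against untreated wells at 0 h because none were taken at 2 h, 3 members were lower and 3 higher, where 17.5% of all genes were called. The count of 6 called was 4 without replicate 1 and 2 without replicate 2. At 4 h 13 were lower and 1 higher, with 30% of all genes called. At 8 h 18 were lower and 5 higher, with 37% called, at 16 h 23 were lower and 4 higher, with 43.3% called, and at 24 h 23 were lower and 3 higher, with 47.9% called. The members' median log2 fold changes at these times were -0.04, -0.32, -0.33, -0.61 and -0.66. At each of 4, 8, 16 and 24 h, 11 members were called lower: IFIT1, IFIT2, OAS3, OASL, IFITM3, UBE2L6, TRIM21, PARP9, IFI6, IFI44 and SAMD9, against 6.35% of all genes. IRF1 was called higher at each of these times, as 8.78% of all genes were, with log2 fold changes of 0.79, 0.56, 0.28 and 0.79.

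**Figure D3:**
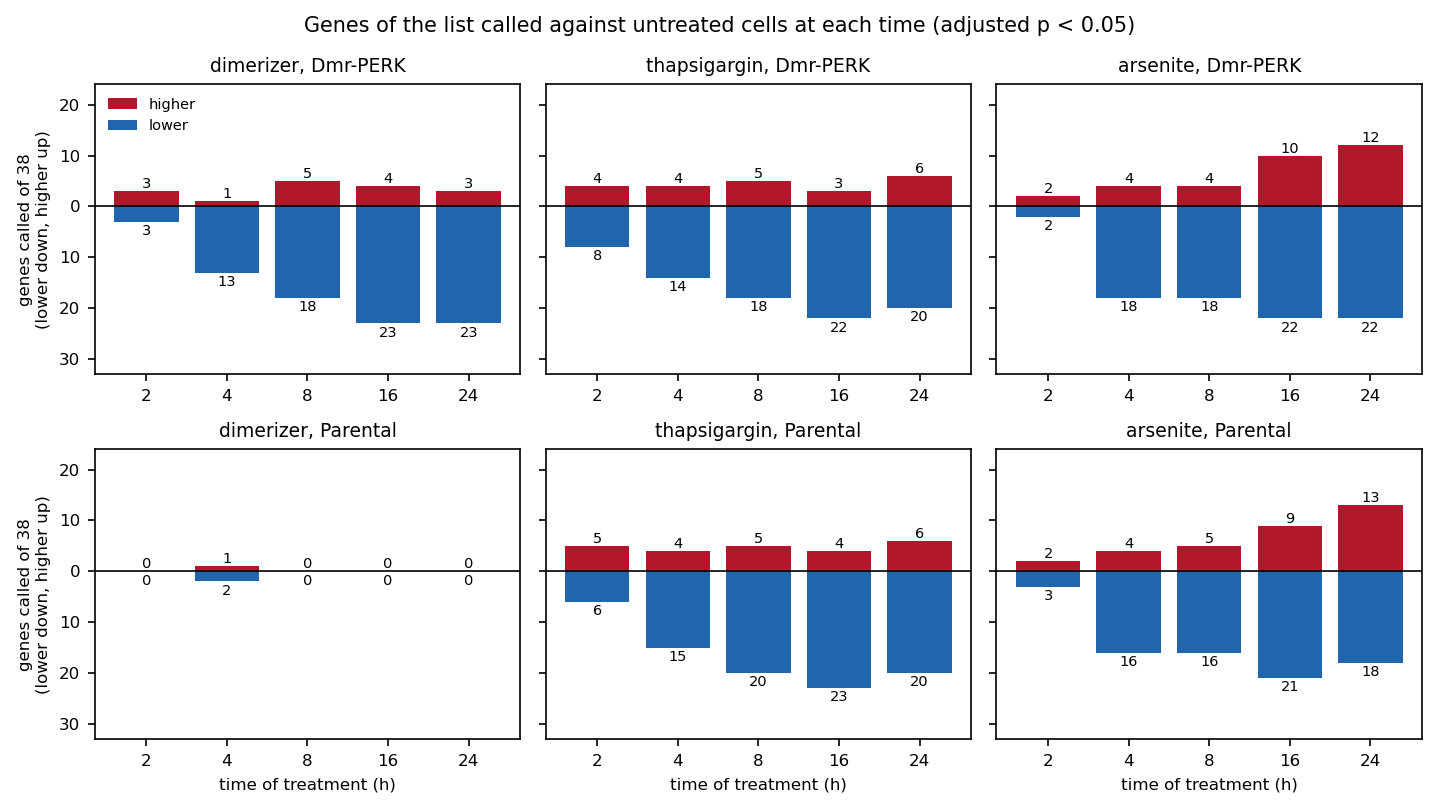
Number of the 38 tested members called higher (upward bars) and lower (downward bars) than untreated wells at each time, in 1 panel per line and treatment. With dimerizer in Dmr-PERK cells the lower count grows to 23 at 16 and 24 h, against at most 2 in Parental cells.

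For several members the effect at 24 h differed from that at 4 h by the test of that difference, with 15 members more negative and 3 more positive at 24 h, against 34.7% of all genes called. IFIT1 had the log2 fold changes -0.99, -1.61, -2.40 and -3.25 at 4, 8, 16 and 24 h. At 24 h it had 0.971, 0.943 and 1.15 CPM in dimerizer wells, against 9.59, 10.2 and 9.15 CPM in untreated wells. In untreated wells IFIT1 itself was 3.23-fold higher at 24 h than at 4 h. IFI6 changed further by -1.38 between 4 and 24 h (adjusted p = 4.29e-14), and HERC6 by -1.40. ISG20 moved the other way, with log2 fold changes of 0.22, 0.62, 1.42 and 1.31, and reached 6.79, 6.64 and 7.02 CPM in dimerizer wells at 24 h, against 2.65, 3.00 and 2.59 CPM in untreated wells. On log2(TPM + 1) with limma, 15 members moved down and 1 up, and the move of ISG20 was not called (adjusted p = 0.199). The share of all genes that moved in that fit is not given here.

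**Figure D4:**
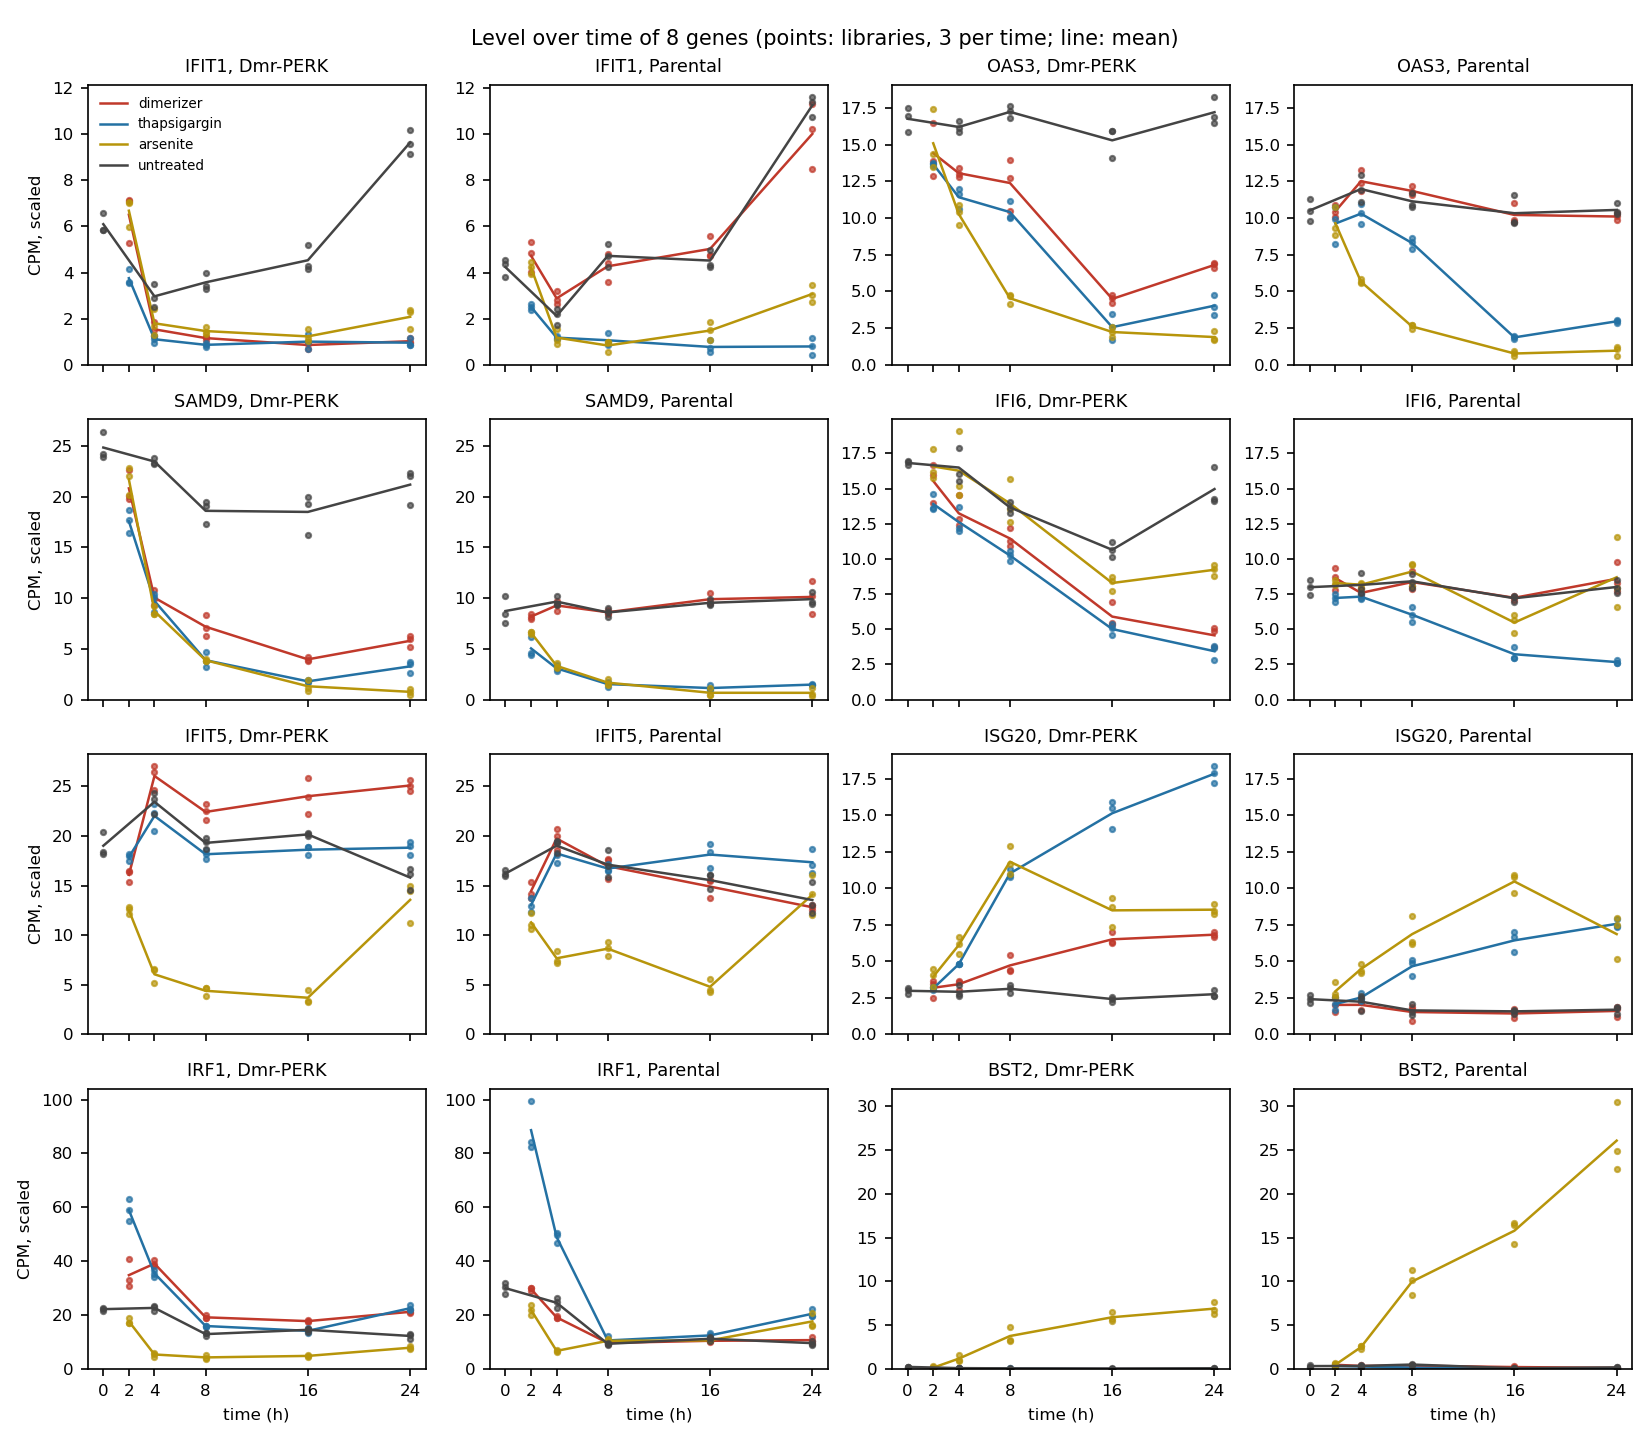
CPM of 8 members in every library against time in hours, 1 panel per gene and line, with points for libraries and lines through the group means. In Dmr-PERK cells IFIT1 at 24 h is near 1 CPM with dimerizer and 9.15 to 10.2 CPM in untreated wells, and ISG20 is higher with each treatment.

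In Parental cells with dimerizer, 0 of 38 members were called by edgeR, against 0.515% of all genes. At an unadjusted p under 0.05 there were 6 members (IFIH1, STAT2, OASL, MX2, HERC5 and DTX3L). The share of all genes at that unadjusted threshold was not counted, so 0.515% is no measure for these 6. DESeq2 called 1 member, STAT2. The smallest adjusted p from edgeR was 0.115, and the log2 differences ranged from -0.50 to 0.24. SAMD9 had 8.45, 9.44 and 11.7 CPM with dimerizer and 8.13, 9.41 and 10.6 CPM untreated, with a 95% interval of the log2 difference of -0.11 to 0.11. For IFIT1 the interval was -0.06 to 0.23, for OAS3 -0.07 to 0.11, for ISG20 -0.28 to 0.10 and for IRF1 -0.15 to 0.03. At single times, 3 members were called in Parental cells at 4 h, where 7.17% of all genes were, 1 higher and 2 lower (1 in all without replicate 1), and IRF1 was among the lower ones (log2 -0.37). At 2 h 0 members were called, where 0.126% of all genes were, and at 8, 16 and 24 h 0 members and 0 genes. The effect at 24 h differed from that at 4 h for 3 members, IRF1, OASL and STAT2, where 3.97% of all genes differed, and for 0 to 2 members with a replicate number left out.

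The difference between the lines was tested directly. The dimerizer effect was lower in Dmr-PERK than in Parental cells for 26 members and higher for 4, where 46.7% of all genes differed. The difference of the effects on the log2 scale was -1.67 for SAMD9 (adjusted p = 2.51e-35), -2.15 for IFIT1 (6.06e-29) and -0.99 for OAS3 (6.41e-25). It was 0.67 for IRF1 (1.68e-17), 0.98 for ISG20 (2.9e-11) and 0.35 for IFIT5 (9.71e-09).

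Thapsigargin also lowered most of these genes. In Dmr-PERK cells 23 were lower and 5 higher, where 62.9% of all genes were called (32.2% lower, 30.8% higher), and the members' median was -0.51, against 0.00 for all genes. In Parental cells 22 were lower and 6 higher, where 64.5% of all genes were called (34.7% lower, 29.8% higher), with a median of -0.49, against -0.06. Called in both lines, 21 members were lower, 3 were higher (IRF1, ISG20 and DTX3L) and 0 were opposite, against 27.3%, 25.2% and 1.37% of all genes. At 16 h DTX3L was called lower in both lines (Dmr-PERK log2 -0.38, Parental log2 -0.32). At 2, 4, 8, 16 and 24 h, 8, 14, 18, 22 and 20 members were lower in Dmr-PERK cells and 4, 4, 5, 3 and 6 higher, where 32.1%, 39.1%, 49.2%, 51.6% and 54.5% of all genes were called. In Dmr-PERK cells the comparison uses the same untreated wells as the dimerizer comparison, so the values are given side by side. In Parental cells 6, 15, 20, 23 and 20 members were lower at these times and 5, 4, 5, 4 and 6 higher, where 29%, 39.2%, 49.4%, 55% and 54% of all genes were called. At 2 h the members called fell to 6 in Dmr-PERK cells without replicate 2, against 12 with all libraries, and to 6 in Parental cells without replicate 1, against 11.

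SAMD9 had 1.69, 3.60 and 10.4 CPM in thapsigargin-treated Dmr-PERK libraries, against 16.2, 19.7 and 23.8 CPM in untreated ones, and 0.967, 1.49 and 3.41 CPM in treated Parental libraries, against 8.13, 9.41 and 10.6 CPM in untreated ones. The groups were separate in both lines, and the gene was 5.22-fold lower in Dmr-PERK (adjusted p = 1.18e-57) and 5.58-fold lower in Parental cells (adjusted p = 1.76e-51). OASL in Parental cells had 0.138, 0.444 and 0.983 CPM with thapsigargin, against 3.08, 3.84 and 5.92 CPM untreated, and was 8.63-fold lower (adjusted p = 4.03e-40). UBE2L6 in Dmr-PERK cells had 4.87, 9.35 and 18.0 CPM, against 14.3, 19.0 and 24.8 CPM untreated (log2 -1.04 ± 0.0381, adjusted p = 5.28e-45), and OAS3 had a log2 fold change of -1.47 ± 0.0513. Treated libraries lay wholly below untreated ones for 8 members in Dmr-PERK and 6 in Parental cells, where 5.19% and 6.21% of all genes did, and wholly above for 1 member in each line, where 6.74% and 8.34% did.

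In Dmr-PERK cells ISG20 was the member that lay wholly above, and in Parental cells it was IFITM3. ISG20 had 4.79, 12.7 and 18.4 CPM in thapsigargin-treated Dmr-PERK libraries, against 2.23, 2.70 and 3.38 CPM in untreated ones, a 3.92-fold increase (log2 1.97 ± 0.0699, adjusted p = 5.29e-46). In Parental cells it was 2.79-fold higher (log2 1.48 ± 0.0796, adjusted p = 3.51e-32). IRF1 rose first, at 2 h, with 63.0, 59.2 and 54.8 CPM in treated Dmr-PERK wells, against 22.8, 22.4 and 21.5 CPM in untreated wells at 0 h. In Parental wells it had 99.3, 84.2 and 82.4 CPM, against 31.8, 30.6 and 27.7 CPM. Over 4 to 24 h its log2 fold change was 0.45 ± 0.0416 in Dmr-PERK (adjusted p = 2.9e-17) and 0.61 ± 0.0425 in Parental cells (adjusted p = 1.23e-24).

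With thapsigargin the RNA sensors DDX58 and IFIH1 were first higher and then lower. In Dmr-PERK cells IFIH1 had log2 fold changes of 0.48, 0.76, -1.11 and -0.82 at 4, 8, 16 and 24 h, and DDX58 had 0.24, -0.38, -1.09 and -0.73, all called. The effect at 24 h differed from that at 4 h by -1.29 for IFIH1 (adjusted p = 2.32e-09) and by -0.96 for DDX58 (2.7e-14). DDX58 had 14.6, 11.1 and 12.8 CPM in treated wells at 24 h, against 21.6, 21.5 and 20.6 CPM in untreated wells. In the membrane group IFITM2 was lower in both lines (log2 -1.13 in Dmr-PERK and -0.92 in Parental cells). IFITM3 had 35.1, 40.1 and 52.3 CPM in treated Dmr-PERK libraries and 36.6, 42.5 and 48.2 CPM in untreated ones (log2 -0.05 ± 0.0305, adjusted p = 0.199). In Parental libraries it had 48.9, 61.6 and 67.0 CPM with thapsigargin, wholly above the 34.6, 41.3 and 47.1 CPM of untreated ones, and was 1.48-fold higher (adjusted p = 1.24e-33). HERC5 was higher in Dmr-PERK cells, with 0.586, 0.847 and 1.36 CPM, against 0.256, 0.443 and 0.857 CPM untreated (log2 0.85 ± 0.161, adjusted p = 2.2e-06).

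The thapsigargin effect differed between the lines for 12 members, lower in Dmr-PERK than in Parental cells for 7 and higher for 5, where 25.6% of all genes differed. The difference of the effects was -0.61 for IFITM3 (adjusted p = 4.83e-23), -0.47 for UBE2L6 and -0.37 for DDX58, and 1.39 for IFI44L, 1.13 for OASL and 0.49 for ISG20. On log2(TPM + 1) with limma the ISG20 difference was 0.35 (adjusted p = 0.131). Between 4 and 24 h, the effect in Dmr-PERK cells moved further down for 14 members and up for 4, where 41.7% of all genes moved. The move was -2.71 for HERC6, -1.78 for IFI6 and -1.62 for OAS3. In Parental cells 14 moved down and 6 up, where 39.3% of all genes moved, with IFIT1 at -3.05, HERC6 at -2.17 and OAS3 at -1.62.

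Arsenite changed the members in both directions. In Dmr-PERK cells 24 were lower and 12 higher, where 83.4% of all genes were called (39.2% lower, 44.2% higher), with a members' median of -0.48, against 0.11 for all genes. In Parental cells 22 were lower and 9 higher, where 81.8% were called (39.4% lower, 42.4% higher), with a median of -0.23, against 0.09. Called in both lines, 21 were lower, 8 were higher (DHX58, OAS2, ISG20, MX1, MX2, BST2, HERC5 and XAF1) and 1 was opposite (IFI44L), against 34.4%, 36.9% and 2.72% of all genes. Without the third Parental arsenite library at 24 h, 23 members were lower and 9 higher in Parental cells, with a median of -0.29. RLE scaling in place of TMM moved the median of all genes by more than 0.1, to 0.224 in Dmr-PERK and 0.206 in Parental cells, and the members' medians to -0.37 and -0.11. At 2, 4, 8, 16 and 24 h, 2, 18, 18, 22 and 22 members were lower in Dmr-PERK cells and 2, 4, 4, 10 and 12 higher, where 19.7%, 49.2%, 66.6%, 78.2% and 80.8% of all genes were called. In Parental cells 3, 16, 16, 21 and 18 were lower and 2, 4, 5, 9 and 13 higher, where 18.1%, 48.4%, 59.7%, 77.8% and 79.9% were. At 2 h, without replicate 2, 1 member was called in Dmr-PERK cells, against 4 with all libraries, and 2 in Parental cells, against 5; without replicate 1, 3 were called in Parental cells. Treated libraries lay wholly below untreated ones for 9 members in Dmr-PERK and 6 in Parental cells, where 10.3% and 11.3% of all genes did, and wholly above for 2 in each line, where 9.69% and 8.64% did.

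PARP9 and DTX3L were both lower with arsenite. PARP9 had 0.982, 2.38 and 14.9 CPM in arsenite-treated Dmr-PERK libraries, against 21.5, 25.8 and 29.5 CPM in untreated ones, and was 7.83-fold lower (log2 -2.97 ± 0.0575, adjusted p = 1.34e-68). In treated Parental libraries it had 0.647, 2.69 and 7.21 CPM, against 15.7, 18.8 and 20.9 CPM in untreated ones (log2 -2.87 ± 0.0644, adjusted p = 4.2e-63). The groups were separate in both lines. DTX3L was 3.57-fold lower in Dmr-PERK cells, with 6.93, 10.7 and 30.6 CPM, against 42.1, 45.2 and 53.6 CPM untreated (adjusted p = 7.35e-65), and its log2 fold change in Parental cells was -1.86 ± 0.0453. SAMD9 was 8.58-fold lower in Dmr-PERK cells, with 0.492, 2.85 and 9.25 CPM, against 16.2, 19.7 and 23.8 CPM untreated (adjusted p = 2.65e-63). OAS3 was 6.1-fold lower in Parental cells, with 0.571, 1.81 and 5.83 CPM, against 9.63, 11 and 12.9 CPM untreated (adjusted p = 2.55e-56).

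BST2, which encodes tetherin, a protein that holds budding virus at the cell surface, was near 0 in untreated cells and had the largest fold change of any member in the arsenite comparisons over 4 to 24 h. It had 0.947, 5.11 and 7.67 CPM in arsenite-treated Dmr-PERK libraries, against 0, 0.0796 and 0.171 CPM in untreated ones, and 2.27, 12.8 and 30.4 CPM in treated Parental libraries, against 0.0653, 0.240 and 0.578 CPM in untreated ones. The 12 treated libraries of each line lay above all untreated ones. Summed over 4 to 24 h, these were 1309 estimated counts in treated and 23 in untreated Dmr-PERK libraries, and 3008 in treated and 103 in untreated Parental libraries. The fitted fold was 42.5 in Dmr-PERK (log2 5.41 ± 0.19, adjusted p = 7.02e-45) and 39.8 in Parental cells (log2 5.32 ± 0.131, adjusted p = 3.92e-57). The rise was present at 4 h, with log2 fold changes of 3.41, 5.48, 6.62 and 6.12 at the 4 times in Dmr-PERK cells. On log2(TPM + 0.1) with limma, the mean log2 fold changes were 4.65 and 4.70 in Dmr-PERK and Parental cells.

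ISG20 was higher with arsenite too. It had 5.50, 8.57 and 12.9 CPM in treated Dmr-PERK libraries, against 2.23, 2.70 and 3.38 CPM in untreated ones (3.04-fold, log2 1.61 ± 0.0726, adjusted p = 5.21e-38). In treated Parental libraries it had 4.20, 6.89 and 10.9 CPM, against 1.30, 1.65 and 2.63 CPM in untreated ones (log2 1.96 ± 0.0783, adjusted p = 2.89e-42). Treated and untreated libraries were separate in both lines. Among the sensors, IFIH1 was lower in both lines, with 1.11, 2.05 and 5.12 CPM in treated Dmr-PERK libraries, against 3.73, 5.14 and 6.51 CPM in untreated ones (log2 -1.17 ± 0.0755), and a log2 fold change of -1.74 ± 0.116 in Parental cells. On log2(TPM + 0.1) with limma the IFIH1 fold change in Dmr-PERK cells was smaller, -0.43, and that of ISG20 was 0.92. DDX58 was lower with log2 fold changes of -0.48 ± 0.037 in Dmr-PERK and -0.32 ± 0.0407 in Parental cells.

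Several members were called higher with arsenite at 16 and 24 h but not at 4 and 8 h in Dmr-PERK cells. The genes of this paragraph were chosen after their values were seen. DHX58, which encodes LGP2, the third RNA sensor, had log2 fold changes of 0.16, -0.95, 1.38 and 2.25 at 4, 8, 16 and 24 h in Dmr-PERK cells. At 24 h it had 5.28, 4.37 and 5.24 CPM in treated wells, against 1.25, 0.772 and 1.07 CPM in untreated wells. MX1 had log2 fold changes of 1.29 and 1.71 at 16 and 24 h, MX2, a nuclear envelope relative that restricts retroviruses, 1.06 and 1.60, and OAS2 1.28 and 1.82. The MX1 and MX2 results depend on the table used: over 4 to 24 h they were called higher from counts (log2 0.81 and 0.62) but not on log2(TPM + 1) with limma in Dmr-PERK cells (0.08 each, adjusted p = 0.544 and 0.419). XAF1, a proapoptotic gene whose mean rise over 4 to 24 h in Dmr-PERK cells was not called without replicate 1 (0.81, adjusted p = 0.099), had 13.3, 12.9 and 13.3 CPM in treated Dmr-PERK wells at 24 h, against 2.75, 2.87 and 2.77 CPM in untreated wells. In Parental cells DHX58, MX1, MX2, OAS2 and XAF1 were called higher at 16 and 24 h as well, and at 24 h XAF1 had 11.3, 10.6 and 10.7 CPM with arsenite, against 2.48, 1.04 and 0.815 CPM. Its estimated counts jumped in some single libraries elsewhere, to 0 CPM in 1 thapsigargin-treated well whose mates had 2.50 and 0.846 CPM.

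STAT2 was higher in the first hours of arsenite and lower at 24 h, with log2 fold changes of 0.74, 0.69, -0.05 and -1.14 in Dmr-PERK and 0.87, 0.83, 0.33 and -0.88 in Parental cells. At 24 h it had 30.1, 35.8 and 30.4 CPM in treated Dmr-PERK wells, against 67.0, 76.7 and 67.9 CPM in untreated wells. Averaged over the times this gave a log2 difference of 0.06 ± 0.0282 in Dmr-PERK (adjusted p = 0.0506) and 0.29 ± 0.0274 in Parental cells (adjusted p = 4.98e-17). IFIT5 was lowest at 16 h and nearer to untreated wells at 24 h, with log2 fold changes of -1.95, -2.12, -2.47 and -0.20 in Dmr-PERK cells. Its level was 5.15 to 6.54 CPM with arsenite at 4 h, against 22.2 to 24.3 CPM untreated, and 11.3 to 15 CPM at 24 h, against 14.5 to 16.7 CPM. By the test of the 24 h against the 4 h effect, 15 members moved down and 13 up in Dmr-PERK cells, where 61.4% of all genes moved, and 12 moved down and 13 up in Parental cells, where 63.5% did. Without the third Parental arsenite library at 24 h these were 13 down and 11 up, and on log2(TPM + 1) with limma 14 down and 7 up. Shares of all genes for these fits are not given here. RLE scaling moved the median of all genes in these tests to 0.232 in Dmr-PERK and 0.261 in Parental cells, against 0.0246 and 0.0565 with TMM.

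The arsenite response of IRF1 differed between the lines. In Dmr-PERK cells it had 3.63, 5.30 and 8.53 CPM with arsenite, wholly below the 11.1, 13.6 and 23.5 CPM of untreated libraries (log2 -1.46 ± 0.0517, adjusted p = 1.66e-46). In Parental cells it had 6.30, 10.7 and 20.8 CPM with arsenite and 9.10, 10.5 and 26.4 CPM untreated (log2 -0.23 ± 0.0473, adjusted p = 9.4e-06). The effect differed by -1.23 between the lines (adjusted p = 9.11e-29). At 24 h IRF1 had 8.53, 7.32 and 7.92 CPM in treated Dmr-PERK wells, against 12.7, 11.1 and 13.1 CPM untreated, but 16.1, 16.2 and 20.8 CPM in treated Parental wells, against 9.36, 9.10 and 10.4 CPM untreated. Over all members the arsenite effect was lower in Dmr-PERK than in Parental cells for 14 and higher for 7, where 42.3% of all genes differed. Other named differences were -0.83 for TRIM21, -0.75 for IRF9, 0.50 for OAS3 and 0.51 for USP18. OAS3 was not called on log2(TPM + 1) with limma (0.03, adjusted p = 0.874), nor USP18 without replicate 1 (adjusted p = 0.0664).

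Set against each other in Dmr-PERK cells at matched times from 2 to 24 h, without the untreated wells, the treatments differed for many members. The same was so for many of all genes tested. Dimerizer wells were higher than thapsigargin wells for 14 members and lower for 8, where 46.8% of all genes differed. SAMD9 was higher with dimerizer by 0.62 on the log2 scale, IFITM2 by 0.56 and UBE2L6 by 0.52 (adjusted p = 1.45e-25), and ISG20 was lower, with a log2 difference of -0.86 (adjusted p = 1.04e-24). STAT2 and IFITM3 were lower with dimerizer, with log2 differences of -0.28 and -0.24. Against arsenite, dimerizer wells were higher for 12 members and lower for 19, where 80.3% of all genes differed, with DTX3L at 1.56, IRF1 at 1.85 and IFIT5 at 1.68 and the fitted BST2 difference at -5.85, USP18 at -1.35 and ISG20 at -0.63. On log2(TPM + 1) with limma these counts were 16 higher and 11 lower, and on log2(TPM + 0.1) ISG20 was not called (adjusted p = 0.994). Thapsigargin wells were higher than arsenite wells for 14 members and lower for 19 in Dmr-PERK cells, where 80.5% of all genes differed, and higher for 11 and lower for 22 in Parental cells, where 79.1% did. On log2(TPM + 1) these counts were 16 and 13 in Dmr-PERK and 14 and 12 in Parental cells. The shares of all genes given here are those of edgeR and not of the log2(TPM + 1) fits. DTX3L was higher with thapsigargin than with arsenite in both lines (log2 1.57 in Dmr-PERK and 1.60 in Parental cells), and BST2, USP18 and IFI6 were lower in both.

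The lines differed before any treatment. Untreated Dmr-PERK wells were higher than untreated Parental wells for 21 members and lower for 8, where 62.1% of all genes differed, and the members' median difference was 0.26, against -0.03 for all genes. All 3 RNA sensors were higher in Dmr-PERK cells, IFIH1 by 2.5-fold. SAMD9 was 2.28-fold higher (log2 1.19, adjusted p = 7.17e-43), and IFI6 was 1.8-fold higher. IFITM2, USP18 and IFI44L were lower in Dmr-PERK cells, with log2 differences of -0.52, -0.60 and -1.45. Untreated wells also changed during the day. IFIT1 was 3.23-fold higher at 24 h than at 4 h in Dmr-PERK and 5.44-fold higher in Parental wells, and IRF1 had log2 differences of -0.88 and -1.37. In all, 3 members were higher and 8 lower at 24 h than at 4 h in untreated Dmr-PERK wells, where 37.6% of all genes differed, and 7 were higher and 7 lower in untreated Parental wells, where 38.2% did.

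Of 101 other genes of the interferon and RNA-sensing pathways, 92 were tested. With dimerizer in Dmr-PERK cells 44 were lower and 32 higher, with thapsigargin 47 and 34, and with arsenite 59 and 22, where 55.3%, 62.9% and 83.4% of all genes were called. In Parental cells 0 were called with dimerizer, 45 were lower and 34 higher with thapsigargin, and 57 lower and 26 higher with arsenite, where 64.5% and 81.8% of all genes were called with these treatments. SLFN5, a Schlafen family protein, was higher, with 52.5, 110 and 129 CPM with dimerizer, against 13.8, 17.3 and 23.4 CPM untreated (log2 2.42), and log2 fold changes of 2.76 with thapsigargin and 3.40 with arsenite. TRIM25, the ubiquitin ligase that activates RIG-I, had 234, 333 and 385 CPM with dimerizer, against 73.1, 99.8 and 119 CPM untreated (log2 1.70), with log2 fold changes of 1.60 and 1.03 for thapsigargin and arsenite. Dimerizer-treated libraries of both genes lay wholly above untreated ones. ZC3HAV1, the zinc finger antiviral protein, had log2 fold changes of -1.27 with dimerizer, -1.84 with thapsigargin and 1.07 with arsenite, and PNPT1, a mitochondrial ribonuclease, had 0.51, 0.41 and -0.79.

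With dimerizer in Dmr-PERK cells the genes named here from the signalling chain above the members had log2 differences between -0.41 and 0.16. The receptor chains IFNAR1 and IFNAR2 had 0.11 and -0.41 with dimerizer, and -0.60 and -1.65 with arsenite in Dmr-PERK cells. The kinases JAK1 and TYK2 had 0.16 and -0.06 with dimerizer, and -0.15 and -0.33 with arsenite. MAVS, the adaptor of the RNA sensors, had 0.01 with dimerizer and -0.98 with arsenite, and IRF3, the factor that MAVS activates, had -0.12 and -0.45. Of 9 receptor and kinase genes tested, 8 were called lower with arsenite in Dmr-PERK and 9 in Parental cells, where 39.2% and 39.4% of all genes were lower. Transcripts of the interferons had low counts: IFNB1 reached at most 4 counts and was at 0 in 98 of 120 libraries, and IFNL1 reached at most 8 counts. IFNE was present in untreated wells, with 37, 29 and 24 counts in Parental and 21, 14 and 10 in Dmr-PERK wells at 4 h. IFNW1 reached at most 15 counts. IFNE, IFNW1, IFNL2 and IFNL3 were the 4 of 10 ligand genes that passed the filter, and none of them was called with dimerizer. With arsenite at 24 h, IFNL3 had 32, 17 and 42 counts in Dmr-PERK and 14, 16 and 16 in Parental wells. IFNL2 had 4, 10 and 27 in Dmr-PERK and 11, 8 and 4 in Parental wells. Both had at most 2 counts in any untreated or dimerizer library, so a fall with dimerizer could not have been called for them.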

How the data were processed

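RNA of U2OS wells was sequenced by the submitters, and per the labels' protocols the libraries were made with a directional kit. Salmon 0.9.1, FastQC 0.11.5 and the build GRCh38 appear in the submitters' processing notes without their settings, and whether strand was used in counting is not stated there. Estimated counts per gene were deposited by the authors as 1 table, of which 49.5% of non-zero entries are whole, and a table of TPM per gene with a floor of 0.063122. The number of columns left unmapped was 0.

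Estimated counts were rounded to whole numbers, filtered by edgeR's expression filter with a minimum count of 10, scaled by TMM (factors 0.839 to 1.17) and fitted with edgeR 4.0.16 in R 4.3.3 as 1 quasi-likelihood model of 40 groups and 120 libraries, with 80 residual and 12.7 prior degrees of freedom. In each comparison the p-values of all 26998 genes went through Benjamini-Hochberg adjustment, with calls at under 0.05. Shares of all genes are those of this fit, and none are given beside member counts from other fits. Errors of log2 fold changes (±) are approximate standard errors of this model. Levels of 1 gene between libraries are TMM-scaled CPM, and levels between genes are TPM. The fit was tested on simulated counts. Libraries of a group never agreed within sampling noise, so each counted once. Treated and untreated samples of the same line, time and replicate number mostly did not deviate together. Correlations of their deviations ran from -0.111 to 0.278, and 2 of 72 pairs were over 0.1. Both were of Parental dimerizer wells at 16 h (0.278 and 0.256). Other pairs of groups were not checked.

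The members, the lists of other pathway genes and the comparisons were chosen with earlier results of these data known. All members are counted; values are given for the 2 most abundant members of each role and, in each comparison, for up to 3 called members per direction with the smallest adjusted p, and for up to 3 genes per direction of the other pathway genes by the same rule, beside receptors, kinases and adaptors always given. Any other member named with values was chosen after its values were seen. Promoter sequences came from RefSeq (GRCh38.p14) by symbol, and 31 of 39 members matched. Alternatives were DESeq2 1.42.0, RLE scaling, no filter on low counts, a replicate block, fits of only the groups compared, limma 3.58.1 on log2(TPM + 1) and log2(TPM + 0.1), and leaving out each replicate number; leaving out the third Parental arsenite library at 24 h was added after seeing the data.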

Additional observations from a re-analysis of the deposited data

Results flagged for a closer look

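Differences between the lines under the same treatment, or between 24 h and 4 h in the same line, were tested as differences of log2 fold changes in the edgeR fit, and those past an adjusted p of 0.05 are listed. Between the lines, the dimerizer effect differed for 30 members: IRF1 0.67, ISG20 0.98 and IFIT5 0.35 more positive in Dmr-PERK than in Parental cells, and SAMD9 -1.67, IFIT1 -2.15 and OAS3 -0.99. The thapsigargin effect differed for 12, with OASL 1.13, IFI44L 1.39 and ISG20 0.49, and IFITM3 -0.61, UBE2L6 -0.47 and DDX58 -0.37. The arsenite effect differed for 21, with IFI44L 1.55, OAS3 0.50 and USP18 0.51, and IRF1 -1.23, TRIM21 -0.83 and IRF9 -0.75. Of all genes tested, 46.7% differed for dimerizer, 25.6% for thapsigargin and 42.3% for arsenite.

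With time in Dmr-PERK cells, the dimerizer effect at 24 h differed from that at 4 h for 18 members, with IFIT5 0.52, ISG20 1.09 and IFIT3 0.98, and IFI6 -1.38, IFIT1 -2.27 and HERC6 -1.40. The thapsigargin effect differed for 18, with ISG20 1.98, IFIT5 0.33 and PARP14 0.25, and HERC6 -2.71, IFI6 -1.78 and OAS3 -1.62. The arsenite effect differed for 28, with IFIT5 1.75, IRF1 1.43 and MX2 1.90, and STAT2 -1.88, PARP9 -3.33 and OAS3 -2.47. Of all genes tested, 34.7% differed for dimerizer, 41.7% for thapsigargin and 61.4% for arsenite.

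With time in Parental cells, the dimerizer effect differed for 3 members, IRF1 0.55, OASL 0.85 and STAT2 -0.31. The thapsigargin effect differed for 20, with ISG20 2.05, IFITM3 0.72 and PARP14 0.62, and OAS3 -1.62, HERC6 -2.17 and IFIT1 -3.05. The arsenite effect differed for 25, with IRF1 2.75, IFIT5 1.38 and BST2 4.25, and STAT2 -1.75, DTX3L -2.31 and PARP9 -2.50. Of all genes tested, 3.97% differed for dimerizer, 39.3% for thapsigargin and 63.5% for arsenite.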

How the results depend on the processing

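Of 22 comparisons, the count of members called moved by over 1.5 times in 2. In Parental cells dimerizer gave 1 called member with DESeq2 in place of 0. The change of the dimerizer effect between 24 h and 4 h in Parental cells gave 5 members with only the groups compared, 1 on log2(TPM + 1) and 0 on log2(TPM + 0.1), in place of 3, and 0 to 2 with a replicate number left out. Among 30 comparisons at single times, leaving out a replicate number moved the count by over 1.5 times at 2 h in 5 and at 4 h in 1 (dimerizer, Parental). For dimerizer in Dmr-PERK cells the count was 26 to 29 with a replicate number left out, against 32. In most pairs checked, wells of the same replicate number did not deviate together. The fit with a replicate block kept 501 of 503 calls of single members and moved no count by over 1.5 times. It gave 32 members for dimerizer in Dmr-PERK cells. DESeq2 kept 495 of 502, RLE scaling 495 of 503 and no filter on low counts 465 of 503. Leaving out replicate number 1, 2 or 3 kept 443, 442 and 454 of 503. The fit without the third Parental arsenite library at 24 h kept 497 of 503 and lost 6. That fit also moved 1 of 30 counts at single times by over 1.5 times, and the members' median changed sign in 1 of 22 comparisons.

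The 2 limma fits kept 409 (log2(TPM + 1)) and 406 (log2(TPM + 0.1)) of 503 calls and reversed 15 each; the cause was not tested. With log2(TPM + 1) and log2(TPM + 0.1) in this order, IFITM1 was 0.50 and 0.51 with dimerizer against untreated in Dmr-PERK cells and 0.60 and 0.74 against arsenite, and its difference between the lines was 0.11 with the first. IFI27 was -0.055 and -0.085 with arsenite in Dmr-PERK cells. For thapsigargin against arsenite, MX1 was 0.059 and 0.081 in Dmr-PERK cells; in Parental cells MX1 was 0.059 and 0.077, ISG20 was 0.41 and 0.45, UBE2L6 0.11 and 0.12, IFI27 0.16 and 0.25, and IFI44L 0.038 with the second. ISG20 was 0.0012 for dimerizer against arsenite with the second. For the change of the arsenite effect between 24 h and 4 h, ISG20 was -0.34 and -0.38 in Dmr-PERK cells; in Parental cells IFIT3 was -0.058 with the first, MX1 -0.0019 and -0.031, IFITM3 -0.24 and -0.24, TRIM21 -0.097 and -0.099, and IFI27 -0.12 and -0.19. In both limma fits the reversed direction was itself called for ISG20 (adjusted p = 0.000274 and 0.000877) and UBE2L6 (0.00112 and 0.00068) in Parental cells. The same held for IFITM3 in the change of the arsenite effect in Parental cells (0.00701 and 0.00696). The other limma reversals were not called. DESeq2 and RLE scaling reversed PARP14 with arsenite in Parental cells, to 0.011 each, and STAT2 for thapsigargin against arsenite in Dmr-PERK cells, to -0.020 and -0.019. Low counts limit the precision for several members. The highest estimated count in any library was 20 for IFITM1, 25 for IFI35, and 30 for IFIT2, IFI44 and OAS1. It was 36 for OAS2, 44 for IFI27 and 52 for IRF7 and HERC5. Without arsenite, BST2 was low as well.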
